A study of Mus musculus with 12 samples.

Results

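Imprinted genes are expressed from only the maternal or only the paternal chromosome, and they lie in clusters that share an imprinting control region carrying DNA methylation on 1 parental copy. The 40 genes described here were chosen by name as well-studied mouse imprinted genes and fall into 15 clusters. Of the 55450 gene records of the mouse annotation, these 40 were each given a window of the gene body plus 10 kb on either side, and every H3K27ac or H3K27me3 region that touched a window was taken. That gave 47 of 31617 H3K27ac regions and 47 of 28047 H3K27me3 regions. Acetylation of lysine 27 on histone H3 (H3K27ac) marks active promoters and enhancers, and trimethylation of the same residue (H3K27me3) is laid down by Polycomb repressive complex 2, which at several imprinted clusters coats the silent copy of genes over long distances. Many imprinted genes act on growth and metabolism and are most active in the embryo and placenta. CUT&RUN, in which an antibody tethers a nuclease to a mark and the released DNA is sequenced, does not separate the parental copies.

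The libraries came from cultured mouse mesenchymal stem cells (MSCs), stromal cells that can form bone, cartilage and fat. Cells of young mice, 3 to 5 months old, and of old mice, 18 to 22 months old, were kept in 2% oxygen throughout, and no other treatment or genotype was labelled. Each sample was divided between the antibodies, so the 12 libraries formed 4 groups of 3, young and old for each mark. The labels do not say whether the samples of an age came from separate animals, so p-values measure the spread between these samples, which may be technical. Libraries held 2750953 to 5541429 reads for H3K27ac and 3622108 to 9947515 for H3K27me3, and old replicate 2 was the shallowest for either mark. Among marker genes, an H3K27ac region covered the start of 10 of 10 mesenchymal genes, 0 of 6 blood genes and 0 of 3 endothelial genes.

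H3K27me3 was the prevailing mark over the imprinted genes. A region of H3K27me3 alone covered the start of 23 of the 40 genes (57.5%), against 27.6% of the 31868 annotated genes of the same gene types. H3K27ac alone covered 8 starts (20.0%), against 40.2% of all those genes. Grb10, which encodes an adaptor that dampens insulin receptor signalling, was the only gene whose start lay in regions of both marks, and 8 starts lay in neither. Over the whole windows, H3K27me3 covered a median of 57.8% of the bases of an imprinted gene and 10.4% over all genes, whereas H3K27ac covered 1.65% and 10.2%. Neighbouring members share regions and windows, so these shares describe the genes and were not tested. Zim1, a maternally expressed zinc finger gene, and Snrpn, which encodes a spliceosomal protein, had no region of either mark in their windows.

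The clusters differed widely in which mark they carried. In the H3K27me3 libraries, regions filled 95.7% of the H19/Igf2 windows, 93.6% of the Kcnq1 domain, 92.9% of Plagl1, 85.1% of the Dlk1-Dio3 domain and 78.0% of the Igf2r domain. The opposite layout was seen at Zrsr1, a retroposed splicing factor gene inside Commd1, where H3K27ac covered 87.8% of the window and H3K27me3 none. Impact, a regulator of translation, also lay mostly in H3K27ac, with 32.4% of its window in that mark and 1.66% in H3K27me3. The Peg3 domain (Peg3, Usp29 and Zim1) and the Peg13 domain (Peg13, Trappc9 and Kcnk9) were largely bare, with at most 6.11% of bases in either mark. Across all clusters, 10.3% of 3104 kb lay in H3K27ac and 43.6% in H3K27me3.

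**Figure D1:**
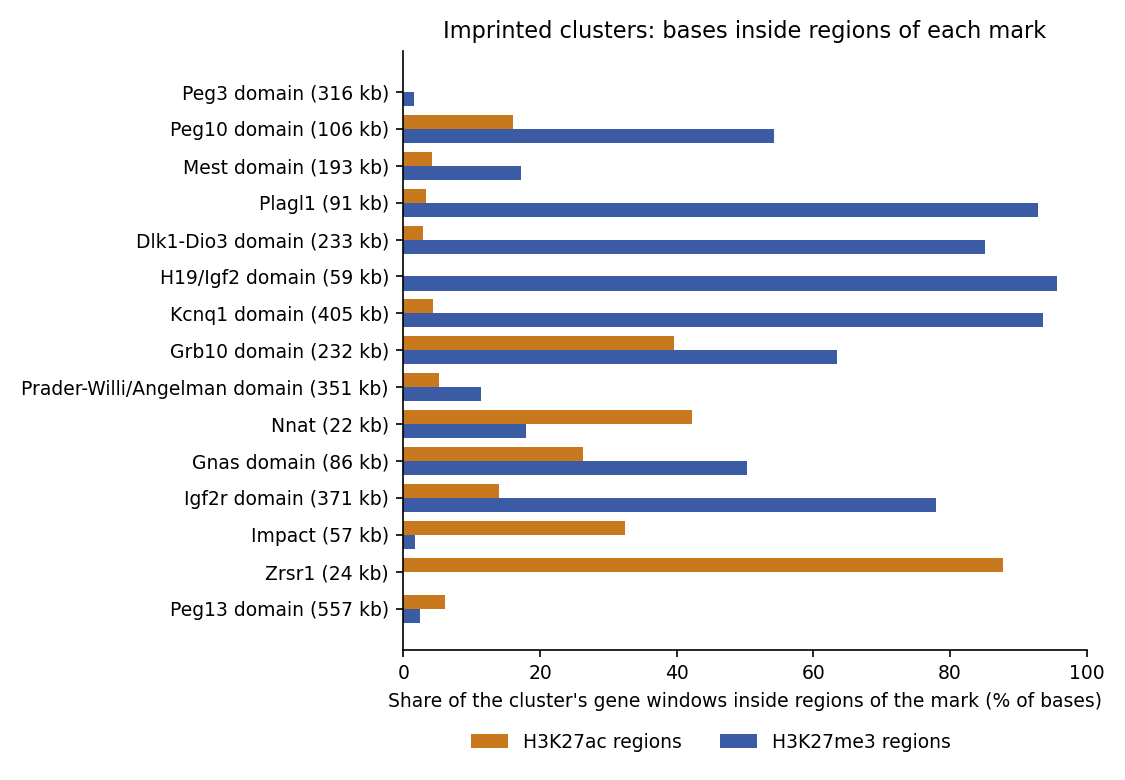
Horizontal bars give, for each of the 15 imprinted clusters (total window length in brackets), the percentage of window bases inside H3K27ac regions (orange) and H3K27me3 regions (blue). H3K27me3 exceeds 75% in 5 clusters, and H3K27ac is the longer bar only at Nnat, Impact, Zrsr1 and the Peg13 domain.

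A larger share of H3K27ac bases lay in H3K27me3 over imprinted genes than over all genes, and most of that overlap was at Grb10. Of the H3K27ac bases in the imprinted windows, 24.0% also lay in an H3K27me3 region, against 2.70% in the windows of all genes of these types. H3K27me3 covered 43.6% of the pooled bases of the imprinted windows, more than that 24.0%. The shares are to be read against such cover. For all genes only the median cover of a window is given, 10.4% against 57.8% for the members. A median is another measure than a pooled share. Whether the overlap differed from what cover alone gives was not tested. The Grb10 domain held 54.5 of the 77.0 kb that carried both marks. Without it the share was 9.84%. Because alleles and cells are pooled, the same copies carrying both marks and different copies carrying 1 mark each cannot be told apart.

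Within the Dlk1-Dio3 domain, Dlk1, a membrane protein that restrains fat cell formation, started inside a 101 kb H3K27me3 region (chr12:109436501-109537500, mm10). Its level in the young libraries was an RPKM of 1.51, here computed from the reads, the library total and the true length of the region, which can be compared between genes. Dio3, the enzyme that inactivates thyroid hormone at the other end of the domain, lay in a 96.5 kb region at 1.72. The maternally expressed non-coding RNAs Rian and Mirg and the retrotransposon-derived Rtl1 also started in H3K27me3, at lower levels of 0.811 to 0.981. Meg3, the non-coding RNA whose promoter lies at the differentially methylated part of the domain, started in neither mark, in a 13 kb gap between H3K27me3 regions. The only H3K27ac region in the gene windows of the domain lay inside Rian, 6.5 kb long. Between the windows there were others, such as 1 that lay 33.8 kb from the Mirg start.

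The growth factor gene Igf2 and the non-coding RNA H19 shared a 118 kb H3K27me3 region at an RPKM of 1.45 (chr7:142550001-142668000), with no H3K27ac region in either window. In the Kcnq1 domain, the start of the cyclin-dependent kinase inhibitor gene Cdkn1c shared a 95.5 kb region (chr7:143414501-143510000) with those of Phlda2, a placental growth restrainer, and the transporter gene Slc22a18. That region had a level of 1.51. Kcnq1, a potassium channel gene, started in a further H3K27me3 region. Kcnq1ot1, the paternally expressed RNA that silences the domain in cis, began inside Kcnq1 in a 4 kb H3K27ac region (chr7:143293001-143297000) and in a gap of 2.5 kb between H3K27me3 regions of 41 and 108 kb.

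In the Igf2r domain, the organic cation transporter genes Slc22a2 and Slc22a3 lay in a 353 kb H3K27me3 region, the longest over any member (chr17:12368501-12721500). Airn, the antisense RNA that silences these genes in the placenta, started in a 28.5 kb H3K27ac region (chr17:12734501-12763000). Igf2r, which encodes the receptor that clears Igf2, started 0.164 kb outside an H3K27ac region of 5 kb and 26.8 kb from H3K27me3. At Gnas, which encodes the stimulatory G protein subunit, the upstream start of the gene record and the antisense Nespas lay in a 37 kb H3K27me3 region (chr2:174278001-174315000). The downstream starts of Gnas lay in a 20.5 kb H3K27ac region (chr2:174324501-174345000).

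**Figure D2:**
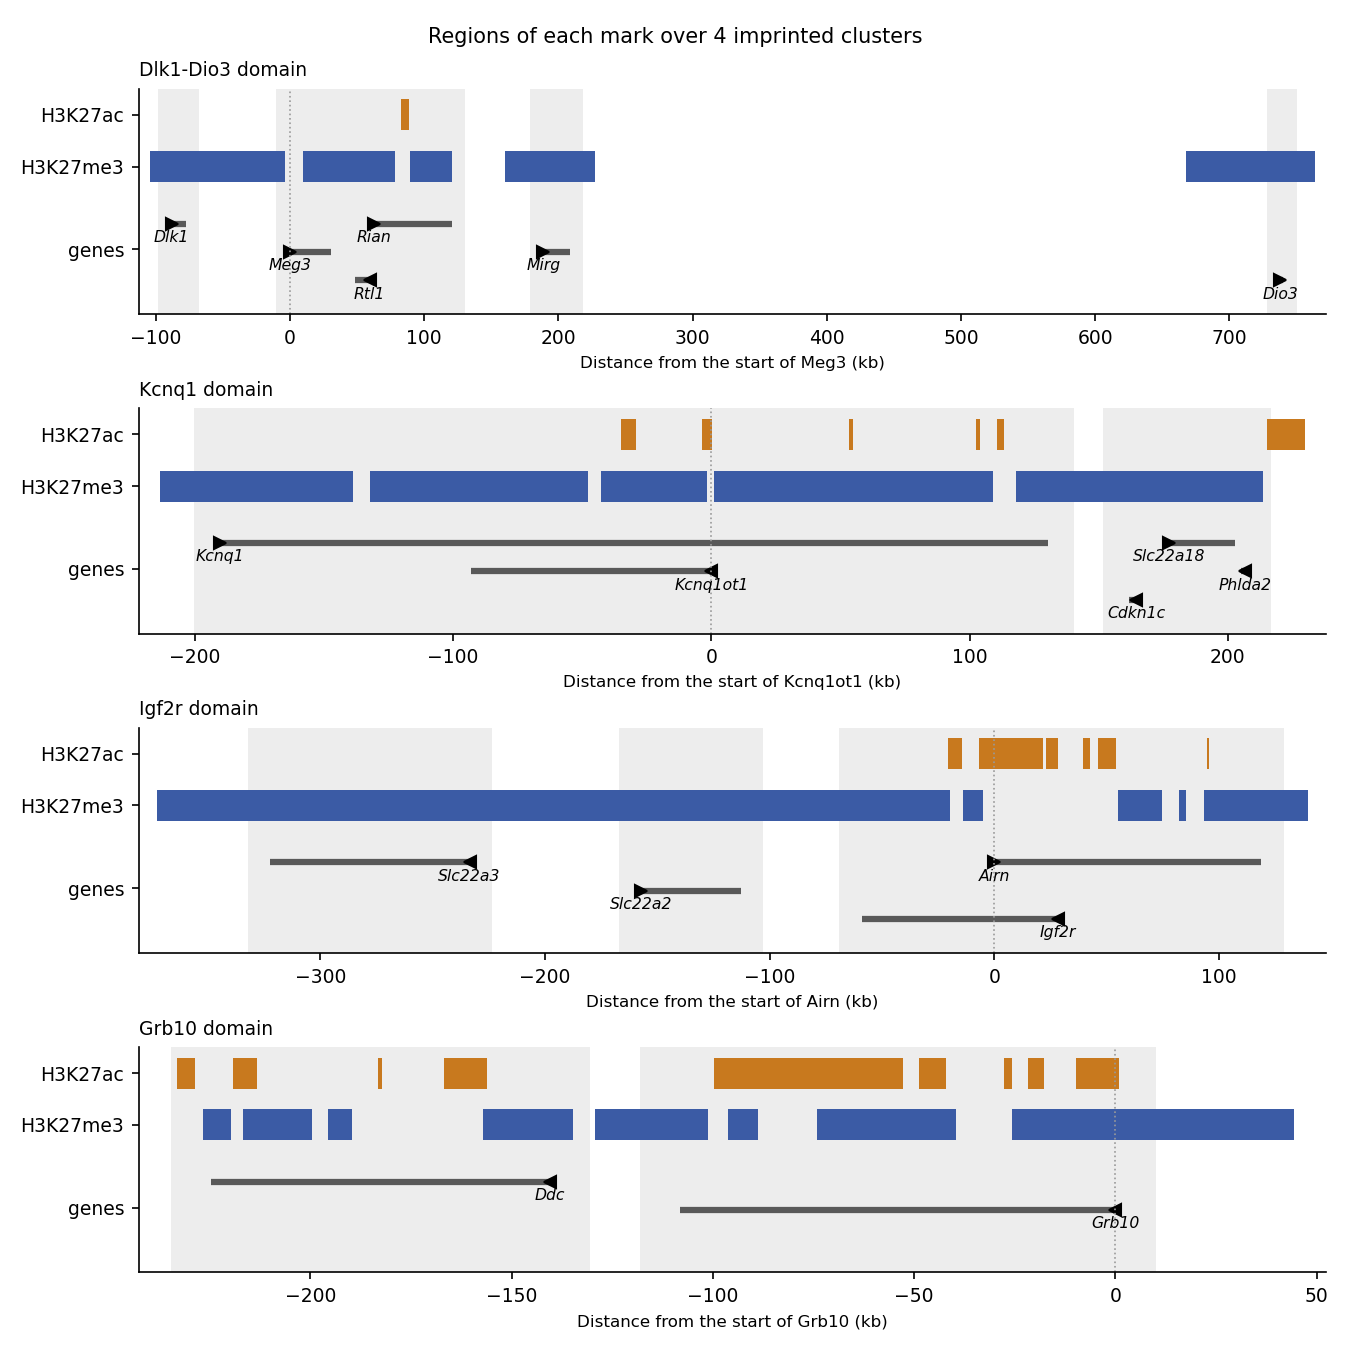
Bars show H3K27ac (orange) and H3K27me3 (blue) regions that reach a gene window (grey shading), and grey lines with arrowheads show the genes and their direction, in kb from the start of Meg3, Kcnq1ot1, Airn or Grb10. Regions outside the shaded windows are not drawn. Meg3 and Kcnq1ot1 start in gaps of 13 and 2.5 kb between H3K27me3 regions, Airn starts in H3K27ac, and Grb10 starts in both marks.

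The remaining starts were split between the marks. Peg3 and Usp29, paternally expressed genes for a zinc finger protein and a ubiquitin protease, share a start region and lay in a 5 kb H3K27me3 region. Mest, whose protein resembles hydrolases, and Plagl1, a zinc finger transcription factor, started in H3K27me3 regions of 44.5 and 69 kb. In the Prader-Willi/Angelman domain, Ndn and Magel2, both of the MAGE family, started in short H3K27me3 regions, whereas the ubiquitin ligase gene Ube3a started in an 18.5 kb H3K27ac region. Copg2, Peg13 and Trappc9 started in H3K27ac only, and the potassium channel gene Kcnk9 started in a 10.5 kb H3K27me3 region with the highest level of any member region of that mark, an RPKM of 2.08. Nnat, a small membrane protein gene, started in neither mark, 2.58 kb from an H3K27ac region.

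Gaps in H3K27me3 at gene starts were then counted, a question chosen after the values were seen, and given as a description. RefSeq places 43 promoters at 29 of the 40 members, and with the gene record used for the others 54 starts were available. Of these, 8 starts (14.8%), of Peg10, Sgce, Plagl1, Meg3, Kcnq1ot1, Ndn and Mkrn3, lay outside H3K27me3 in a gap of at most 25 kb between H3K27me3 regions. The same was true of 6.47% of 32851 RefSeq starts. For Plagl1 and Ndn these are RefSeq starts downstream of the start of the gene record, which lay in H3K27me3. Peg10, a retrotransposon-derived gene, and Sgce, the epsilon-sarcoglycan gene, are divergently transcribed from 1 shared gap. The gap at Kcnq1ot1 held 42.0 CpG per kb against 8.53 in the H3K27me3 regions beside it, and the 6.5 kb gap at Plagl1 held 25.4 against 9.32. The other gaps held 22.6 at Ndn, 20.7 at Meg3, 16.7 at Peg10 and Sgce and 12.3 at Mkrn3, against 6.27, 15.0, 7.99 and 6.34 beside them. The median was 12.5 CpG per kb over the 1595 such gaps in the genome that hold a RefSeq start.

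The hexamer TGCCGC is the core bound, when methylated, by ZFP57, the zinc finger protein that keeps imprints. On either strand it occurred in 11 of 43 member promoters (25.6%) and in 11.6% of all 32851 promoters of the same length, 250 bases before to 50 after the start. Overlapping promoters of a gene, as at Mest, count separately. GGNGGCAG, part of the CTCF motif, occurred in 11.6% and 12.6%, and AAGATGGC, bound by YY1, in 2.33% and 2.75%. Members also had more CpG, with a median of 11 per promoter against 7 overall. The gap at Kcnq1ot1 held 3 hexamers, all 804 to 876 bases downstream of its start, and that at Plagl1 held 6. Per kb these came to 1.20 and 0.923, with 0.30 at Mkrn3, 0.182 at Peg10 and Sgce, 0.0769 at Meg3 and 0 at Ndn, and the median over gaps with a RefSeq start was 0.087. At Meg3 the H3K27me3 regions beside the gap held more, 0.207 per kb. A match describes the letters and not a bound site.

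Sequences follow for a member of each layout, from RefSeq promoters on GRCm38.p6, 5′ to 3′ along the gene, with the hexamer on either strand in capitals. Grb10 (chr11:12037371-12037670, minus strand) met the rule of a start in both marks, and the others were added after their values were seen. Plagl1 (chr10:13090582-13090881, plus) and the Kcnq1ot1 stretch with its 3 hexamers (chr7:143295649-143295766, minus, read from the genome) lie in H3K27me3 gaps, Mest (chr6:30737800-30738099, plus) lies in H3K27me3, and Airn (chr17:12741061-12741360, plus) lies in H3K27ac. They held 45, 26, 12, 17 and 3 CpG.
Grb10: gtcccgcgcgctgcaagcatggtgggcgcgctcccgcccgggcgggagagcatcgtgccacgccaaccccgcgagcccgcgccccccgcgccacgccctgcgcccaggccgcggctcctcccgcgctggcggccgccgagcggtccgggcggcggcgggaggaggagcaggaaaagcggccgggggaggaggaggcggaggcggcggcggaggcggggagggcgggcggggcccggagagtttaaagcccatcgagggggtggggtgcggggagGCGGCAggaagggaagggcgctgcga
Plagl1: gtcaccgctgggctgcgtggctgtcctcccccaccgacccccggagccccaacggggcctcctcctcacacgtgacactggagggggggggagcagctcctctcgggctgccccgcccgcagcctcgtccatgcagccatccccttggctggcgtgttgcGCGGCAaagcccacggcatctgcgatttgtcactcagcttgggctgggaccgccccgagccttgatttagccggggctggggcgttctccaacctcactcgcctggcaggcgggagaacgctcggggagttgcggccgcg
Kcnq1ot1: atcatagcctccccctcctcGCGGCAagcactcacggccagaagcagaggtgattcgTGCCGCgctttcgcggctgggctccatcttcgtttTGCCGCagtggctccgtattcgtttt
Mest: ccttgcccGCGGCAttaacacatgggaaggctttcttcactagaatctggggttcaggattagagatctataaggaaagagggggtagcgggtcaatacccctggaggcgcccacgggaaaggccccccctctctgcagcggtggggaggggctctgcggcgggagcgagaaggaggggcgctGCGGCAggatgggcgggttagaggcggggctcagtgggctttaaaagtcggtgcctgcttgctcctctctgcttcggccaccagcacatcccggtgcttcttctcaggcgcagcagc
Airn: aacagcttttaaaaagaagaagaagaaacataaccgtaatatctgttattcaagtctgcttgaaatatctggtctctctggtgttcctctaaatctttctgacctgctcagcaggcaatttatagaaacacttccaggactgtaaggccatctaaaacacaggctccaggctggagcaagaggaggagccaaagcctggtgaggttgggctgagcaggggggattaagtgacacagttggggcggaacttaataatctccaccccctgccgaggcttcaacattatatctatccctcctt

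The comparison of old with young cells asked whether age was accompanied by a different level of either mark over these genes. Columns were scaled to each other, and signal below means reads scaled by library size over a constant 0.5 kb, so it grows with region length and is compared only within a region. By limma on log2 signal with Benjamini-Hochberg adjustment over the whole table of a mark, 0 of 47 member regions were called for H3K27ac at an adjusted p under 0.05, where 0.0822% of all H3K27ac regions were. For H3K27me3, 0 of 47 were called, where 0.488% of all regions were. At an unadjusted p under 0.05 there were 6 H3K27ac regions, 3 higher and 3 lower in old cells, and 9 H3K27me3 regions, 5 higher and 4 lower. These counts correspond to 12.8% and 19.1% of the members' regions, against 9.6% and 13.9% of all regions. The H3K27me3 member regions were longer than all H3K27me3 regions, with a median of 26.5 kb against 10.5 kb. edgeR on the recovered reads called 0 H3K27ac regions and 1 H3K27me3 region, at Kcnk9 (2.13% of members), where it called 0.304% and 1.4% of all regions. On the signal as deposited limma called 0 H3K27ac member regions, where 0.332% of all were called, and 1 for H3K27me3, where 2.76% were. Without old replicate 2 it called 0 for H3K27ac, where 0.0127% of all were called, and 2 for H3K27me3, where 1.12% were.

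Summed signal at marker genes of other cell types also separated the ages for H3K27ac, without a test. Summed H3K27ac over the 5 regions at endothelial markers, all at Pecam1 and Tek with none at Cdh5, was 49.0 to 56.9 in young and 61.4 to 77.1 in old libraries, without overlap. By limma, the adjusted p of the Pecam1 region with the smallest p was 0.375. Over the 4 regions at blood markers, 3 of them at Spi1, it was 82.0 to 84.3 in young and 74.7 to 78.5 in old libraries, again without overlap. The 14 regions at mesenchymal markers overlapped between the ages, at 1474 to 1581 and 1463 to 1561. Summed H3K27me3 overlapped between the ages for all 3 marker lists. The part of these shifts in the differences below was not tested. In bulk libraries, fewer cells that carry a mark and less mark per cell cannot be told apart.

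Ages did not overlap, with every old library on the same side of every young library, in 8 H3K27ac regions (17.0%, against 14.5% of all) and 14 H3K27me3 regions (29.8%, against 19.1%). Of the 14, 5 were higher and 9 lower in old cells. The H3K27me3 member regions had a median length of 26.5 kb and a young RPKM of 0.980, against 10.5 kb and 0.741 for all. The part of length and level in the larger share was not tested. The median log2 difference of old minus young was -0.04 for the H3K27ac regions and -0.03 for the H3K27me3 regions, beside -0.0028 and -0.0077 over all regions. The H3K27ac median was 0.03 under edgeR, 0.02 without old replicate 2 and 0.0069 without old replicate 3. In number, 25 H3K27ac and 28 H3K27me3 regions were lower in old cells, and 30 and 35 on the signal as deposited, where the median of all regions was itself at -0.12 and -0.13 on the log2 scale.

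The smallest p among the H3K27ac regions was in the Igf2r domain. In the 28.5 kb region over the start of Airn, young libraries had scaled signals of 48.0, 55.4 and 50.0 and old libraries 66.2, 68.4 and 63.2. Every old library was above every young library, with a log2 difference of 0.37 (SE 0.12, adjusted p = 0.250 by limma). The neighbouring 5 kb region, which lies inside Airn next to the Igf2r start, had 5.23, 4.04 and 6.91 in young and 7.18, 11.8 and 9.17 in old cells, again without overlap, from 7 to 21 reads a library. Its log2 difference was 0.75 (SE 0.30, limma adjusted p = 0.404). All 6 H3K27ac regions of the domain had positive differences, the others between 0.21 and 0.28.

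Grb10 held H3K27ac regions with lower values in old cells, also without a call. The 47 kb region in its body had 94.1, 96.9 and 83.5 in young and 82.5, 68.4 and 77.5 in old libraries, and the ages were separate by a narrow margin. The log2 difference was -0.27 (SE 0.11, limma adjusted p = 0.396). Over the start, the values were 28.8, 21.9 and 32.2 in young and 20.7, 22.8 and 18.4 in old libraries, where young replicate 2 fell among the old. That difference was -0.40 (SE 0.18, limma adjusted p = 0.465). H3K27me3 over the same start did not separate the ages, with 134, 160 and 153 in young and 141, 140 and 113 in old libraries. A 7.5 kb H3K27me3 region in the body had low values, 7.70, 6.24 and 7.59 in young and 8.95, 13.7 and 11.1 in old cells, without overlap and with a log2 difference of 0.60 (SE 0.21, limma adjusted p = 0.195).

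The smallest p among the H3K27me3 regions was at the start of Kcnk9, a gene expressed from the maternal copy in brain. Young libraries had 40.1, 40.6 and 50.0 and old libraries 31.4, 33.6 and 23.1, without overlap. The log2 difference was -0.57 (SE 0.15, limma adjusted p = 0.0792). The region was called without old replicate 2 (adjusted p = 0.0101), by edgeR (adjusted p = 0.025) and on the signal as deposited (adjusted p = 0.0201), and over all settings the limma and edgeR adjusted p ranged up to 0.318. The nearby Trappc9, a trafficking complex gene that spans the RNA gene Peg13, had only short H3K27me3 regions of 1 and 2 kb.

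The 101 kb H3K27me3 region from Dlk1 towards Meg3 was also lower in old cells, with 296, 310 and 310 in young and 283, 233 and 240 in old libraries. The ages did not overlap, and the log2 difference was -0.28 (SE 0.09, limma adjusted p = 0.131). At Plagl1 the H3K27me3 regions on either side of its gap went opposite ways. Downstream, the 74.5 kb region had 106, 118 and 104 in young and 129, 131 and 127 in old libraries, a log2 difference of 0.25 (SE 0.09, limma adjusted p = 0.208). Upstream, the 69 kb region had 213, 205 and 213 in young and 198, 194 and 183 in old libraries, a log2 difference of -0.13 (limma adjusted p = 0.493). The ages did not overlap in either. The level per length in young cells was 1.52 upstream and 0.731 downstream.

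**Figure D3:**
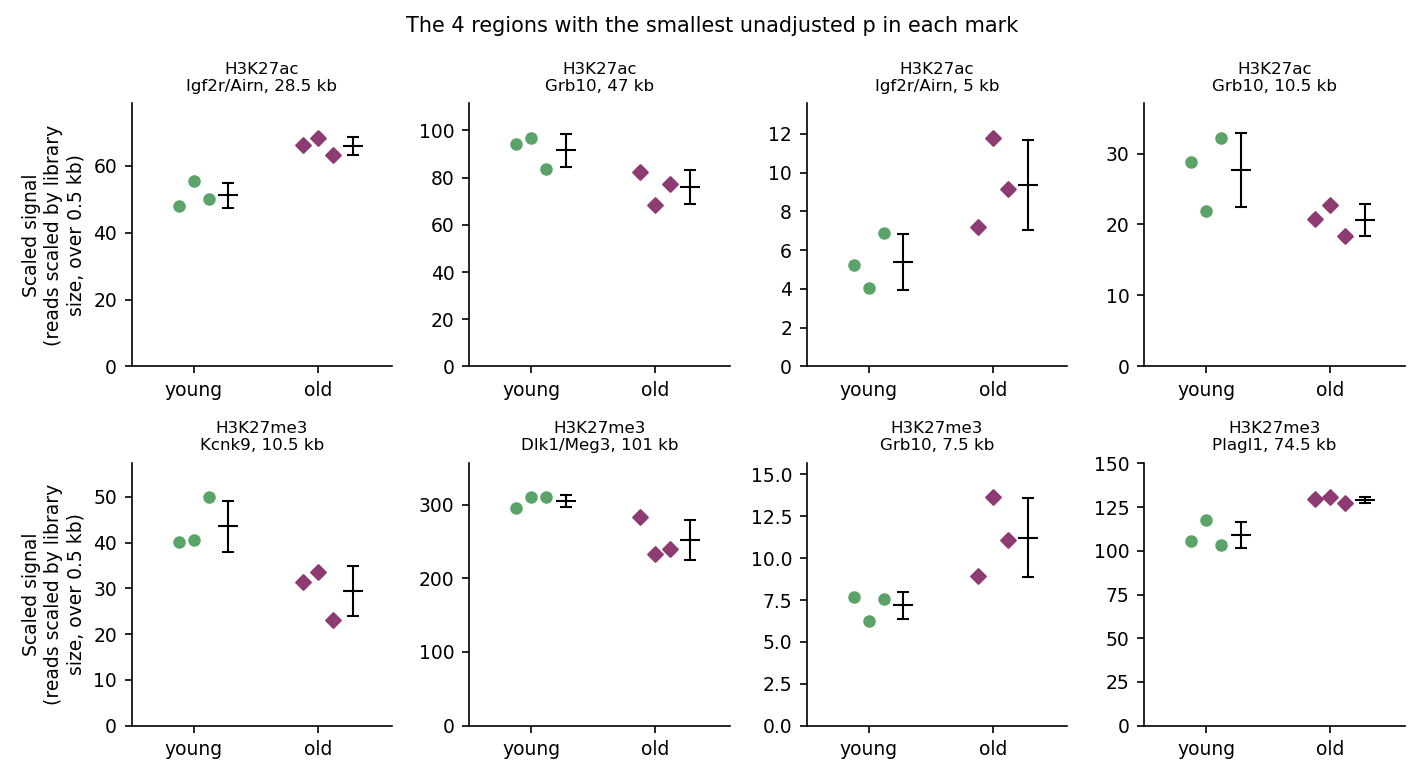
Scaled signal (reads scaled by library size over a constant 0.5 kb) in every library for the 4 H3K27ac regions (top) and 4 H3K27me3 regions (bottom) with the smallest unadjusted p, young as circles and old as diamonds, with black bars for the mean and SD (n = 3). The ages overlap only in the 10.5 kb H3K27ac region at the Grb10 start.

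The starts of the other lead genes were not called either. H3K27ac at Kcnq1ot1 was 8.17, 6.92 and 7.57 in young and 7.18, 3.15 and 8.15 in old libraries. At Peg13 it was 5.23, 5.77 and 7.89 in young and 6.38, 7.08 and 6.63 in old libraries. Both regions overlapped between the ages and held few reads, 4 to 25 a library. Zrsr1, in a broad region shared with Commd1, had 60.8, 64.6 and 60.9 in young and 62.6, 74.7 and 67.3 in old libraries. Over the start of Impact, H3K27ac was 20.3, 21.4 and 22.7 in young and 16.7, 14.9 and 18.4 in old libraries. Only Impact separated the ages among these 4, with a log2 difference of -0.36 (SE 0.19, limma adjusted p = 0.560).

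For H3K27me3, the 5 kb region at the Peg3 and Usp29 starts had 12.1, 11.9 and 12.0 in young and 10.7, 7.96 and 9.83 in old libraries, without overlap. Its log2 difference was -0.33 (SE 0.19, limma adjusted p = 0.453). The H19/Igf2 region had 329, 351 and 344 in young and 320, 355 and 287 in old libraries, with old replicate 2 above all young libraries. Mest also overlapped, with 126, 152 and 155 in young and 147, 174 and 121 in old libraries. The Cdkn1c region had 265, 293 and 307 in young and 259, 284 and 231 in old libraries, and the upstream Gnas region had 88.9, 88.5 and 101 against 80.3, 90.4 and 63.7. These 4 did not separate the ages. The 2 kb region at Ndn did, at 2.96, 3.22 and 1.05 in young and 3.49, 4.55 and 4.12 in old libraries, but from only 4 to 16 reads a library (log2 difference 0.74, SE 0.35, limma adjusted p = 0.351).

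Signal was next summed over the regions of each cluster and compared by an exact permutation test, whose smallest two-sided p with 3 against 3 libraries is 0.10. The adjusted p over the 27 tests was 0.27 at the lowest, so no cluster passed. Ages did not overlap in 3 of 13 clusters for H3K27ac and 7 of 14 for H3K27me3, which differ from single genes in length and number of regions. Taken gene by gene, the summed signal of 5 of 20 member windows for H3K27ac and 12 of 35 for H3K27me3 did not overlap between the ages, beside 15.2% and 20.7% of the windows of all genes of these types that held a region. Neighbouring windows share regions, as at Peg3 and Usp29, Slc22a2 and Slc22a3, Dlk1 and Meg3, and Igf2r and Airn. These counts therefore repeat some regions and are not of separate genes. For H3K27ac, the Igf2r domain was higher in old cells, with young sums of 94.7, 96.9 and 98.7 and old sums of 116, 131 and 123. The Grb10 domain was lower, with 199, 182 and 180 against 164, 146 and 150, and the Peg10 domain was lower by a smaller margin, with 32.0, 32.9 and 32.6 against 30.3, 25.2 and 31.1. The log2 differences were 0.35, -0.28 and -0.18.

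Of the 7 clusters that separated the ages for H3K27me3, 6 were lower in old cells, but the number of separate clusters was 4 on gene bodies alone and 3 when at least 50% of a region had to lie in the window. The log2 differences were -0.55 in the Peg13 domain, where Kcnk9 supplies most of the signal, -0.35 in the Peg3 domain, -0.25 at Impact, -0.21 at Nnat, -0.19 in the Dlk1-Dio3 domain and -0.12 in the Igf2r domain. The Impact region reached its window by 0.95 kb only, 46.1 kb from the Impact start, and covers the start of Hrh4, and the Nnat region lay 8.42 kb from the Nnat start and covers that of Blcap. The Peg10 domain alone was higher, by 0.13, a sign that turned to -0.03 on gene bodies without flanks. Most of its sum came from the 102 kb region downstream of Peg10, 162 of 286 in young and 187 of 313 in old cells on average. That region reached the Peg10 window only by its edge, within the 10 kb flank. In the Igf2r domain the sums were 1086, 1143 and 1192 in young and 1086, 1040 and 1027 in old libraries, where old replicate 1 lay just below the lowest young library. There, H3K27ac was higher and H3K27me3 lower in old cells. In the Peg10 domain the marks differed the other way, which for H3K27me3 rested on the flanking 102 kb region. The marks were read from the same samples, so these directions are not independent of sample, and a test of them together was not made.

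**Figure D4:**
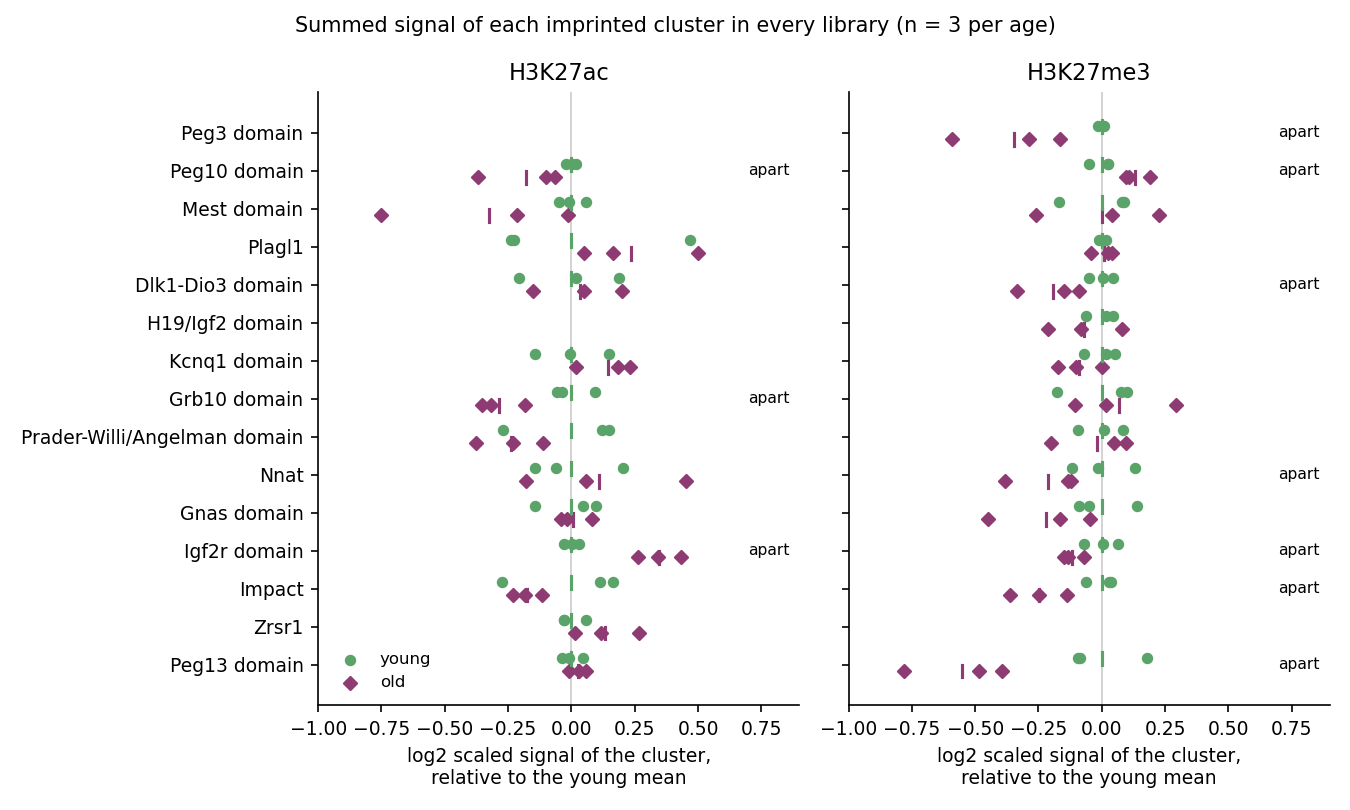
Log2 summed signal of each imprinted cluster relative to the young mean, for H3K27ac (left) and H3K27me3 (right), with young libraries as circles, old libraries as diamonds and the means as vertical ticks (n = 3 per age). Clusters whose ages do not overlap are marked "apart", 3 for H3K27ac and 7 for H3K27me3.

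The H3K27me3 difference varied with the level of the region, a pattern looked for after the values were seen. Of the 23 member regions above the members' median RPKM of 0.981, 20 (87.0%) were lower in old cells, with a median log2 difference of -0.13. Of the 24 at or below it, 8 (33.3%) were lower, with a median of 0.09. On the signal as deposited, 95.7% and 54.2% were lower. Split at the same level, 70.6% of all denser regions and 46.8% of all sparser regions were lower. The regions over the starts of Dlk1, Dio3, Kcnk9 and Cdkn1c were among the denser, and the 74.5 kb region downstream of the Plagl1 gap, the 102 kb region downstream of Peg10 and the 7.5 kb region inside Grb10 were among the sparser. Across the 47 regions, Spearman's rho was -0.32 and Pearson's r with log2 level -0.14, and over all 28047 H3K27me3 regions they were -0.03 and 0.08. Without old replicate 2 the members' values were -0.49 and -0.35 and those of all regions -0.13 and 0.01. These are descriptions over regions that share libraries and neighbours. For H3K27ac the shares lower in old cells were 56.5% and 50.0%. The percentage of reads inside H3K27me3 regions also differed with age, from 62.3 to 66.6% in young and from 53.8 to 60.8% in old libraries, and its part in the pattern was not tested.

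**Figure D5:**
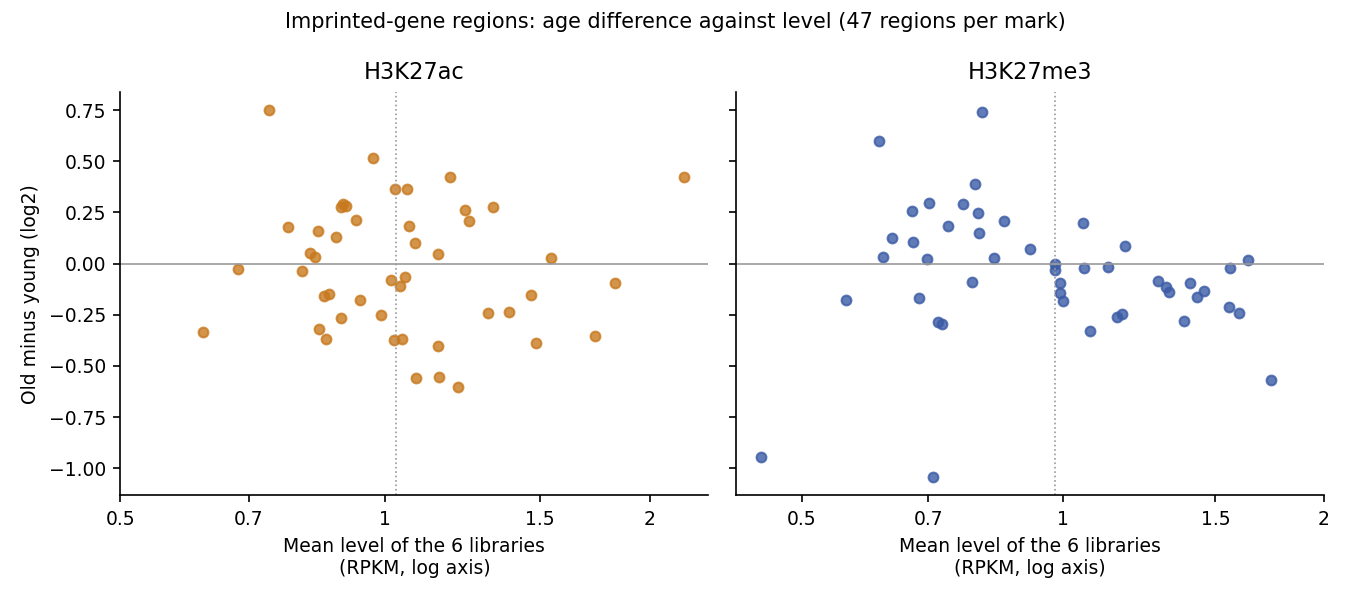
Each point is a member region, with the mean level of the 6 libraries as RPKM (log axis) against old minus young in log2, for H3K27ac (left) and H3K27me3 (right). The dotted line is the members' median level, and right of it 20 of 23 H3K27me3 regions lie below 0.

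Other imprinted genes were read alongside. A further list of 40 had 55 H3K27ac and 46 H3K27me3 regions outside those already described. Limma called 0 in either mark, where 0.0822% and 0.488% of all regions were called. At an unadjusted p under 0.05 there were 3 H3K27ac regions, 1 higher and 2 lower in old cells, and 8 H3K27me3 regions, 6 higher and 2 lower. Over all regions, 9.6% for H3K27ac and 13.9% for H3K27me3 had such a p. The smallest p values were at Asb4 for H3K27me3 (log2 difference -0.72, SE 0.22, limma adjusted p = 0.131) and at Dcn for H3K27ac, the gene of the matrix proteoglycan decorin. At Dcn the 20.5 kb region had 64.4, 31.2 and 38.8 in young and 33.1, 26.0 and 31.1 in old libraries, with overlap (log2 difference -0.51, limma adjusted p = 0.368). Slc38a4, an amino acid transporter gene, had higher H3K27me3 in old cells without overlap, at 32.8, 33.6 and 29.3 against 37.6, 43.2 and 40.6 (log2 difference 0.34, limma adjusted p = 0.207). Of 12 genes for proteins that keep imprints, 11 had an H3K27ac region in their window, as did 20088 of 31868 windows of all genes. H3K27ac covered the start of 4 of the 12 and H3K27me3 that of 5. Limma called 0 of their 26 H3K27ac and 16 H3K27me3 regions, with 3 and 0 at an unadjusted p under 0.05, where 9.6% and 13.9% of all regions were.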

How the data were processed

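Per the labels, the authors prepared CUT&RUN libraries of young and old MSCs, and their processing notes name Bowtie2, Picard and the builds mm10 and GRCm38, without versions. The region caller is not given in the sources used here. The authors deposited a table per mark that lists signal by region and library. The unit is called RPKM there, but the deposited signal had been divided by a constant 0.5 kb and not by region length: 100% of values in all 12 columns were whole reads within 0.01. The tests planned for RPKM were kept. Columns of per-sample values left unused numbered 0. The deposited signal was scaled by median-of-ratios factors, and levels per length were computed from it. The tables were normalized separately, so no test crosses the marks. Groups were read from titles and characteristics. The accompanying paper describes other libraries of this laboratory and guided style only.

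Regions were matched to GENCODE vM21 genes, with at least 1 bp of overlap, and 0 regions passed the end of a GRCm38 chromosome. Old and young were compared with limma 3.58.1 (R 4.3.3, trend and robust) on log2(signal + 0.5), fitted to all regions, and with an exact permutation test for clusters. The script was tested on simulated data. A signal of 3 reads was 1.08 to 2.18 in H3K27ac and 0.603 to 1.66 in H3K27me3 libraries. Values are given for starts of lead genes, called regions and the 4 smallest p in each mark. Alternatives were other pseudocounts (0.1 and 1), scalings, filters and windows, edgeR 4.0.16 on recovered reads, a replicate block and each library left out. The members and lists were chosen with earlier results of these data known.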

Additional observations from a re-analysis of the deposited data

How the results depend on the processing

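Of the 86 alternative values of the counts and medians, 78 stayed close to the reported value. The number of H3K27ac clusters whose ages did not overlap was 3, and became 1 on the signal as deposited and from 4 to 7 when single libraries were left out, 7 without young replicate 2. Leaving a library out cannot make separate ages overlap, so such numbers can only stay or rise. The share of all gene windows with separate ages, 15.2% for H3K27ac and 20.7% for H3K27me3, was counted in the main run only. Cluster numbers under other settings therefore have no matching background. For H3K27me3 the cluster number of 7 became 4 on gene bodies alone and 3 when at least 50% of a region had to lie in the window, and it was 7 to 10 with single libraries left out. The 0 called H3K27me3 regions became 1 on the signal as deposited and 1 under edgeR, Kcnk9 in either case, and 0 to 2 with single libraries left out, 2 without old replicate 2 (Dio3 and Kcnk9), where 2.76%, 1.4% and 1.12% of all H3K27me3 regions were called in turn. For H3K27ac 0 stayed 0 throughout. The signal as deposited moved the median of all regions by -0.12 for H3K27ac and -0.13 for H3K27me3, so differences on that scale are to be read against these shifts. The separate ages of H3K27ac in the Igf2r and Grb10 domains held in 10 of 11 settings each, and those of H3K27me3 in the Dlk1-Dio3 and Peg3 domains in 11 of 11. These settings include the main run and those with a library left out, which could not end the separation. The Peg3 domain holds 1 H3K27me3 region, so few settings could change it. The cause of the shifts between settings was not tested.

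Young and old libraries share replicate numbers, but the labels give the numbers no meaning, and deviations of same-numbered libraries correlated between -0.08 and 0.07, so they were not treated as pairs. With a replicate block, 0 member regions were called in either mark, where limma called 81 of all H3K27ac regions. An unadjusted p under 0.05 was found for 6 H3K27ac and 13 H3K27me3 member regions. In 6 H3K27ac and 8 H3K27me3 clusters, differences had 1 sign within all numbers. The shares of all regions at that p and of all gene windows with 1 sign are not given. These counts are therefore not a result about the members. Depth limits the short regions most, with 37 of 47 H3K27ac and 45 of 47 H3K27me3 regions averaging at least 10 reads. Read floors cover counting error only.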
